A study of Macaca mulatta with 17 samples.

Results

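Nerves that reach the uterus are made of axons and of the Schwann cells that wrap them, and 6 genes that mark these cells were followed in the uterus of fetal rhesus macaques. TH, tyrosine hydroxylase, catalyzes the rate-limiting step of catecholamine synthesis and marks sympathetic, noradrenergic neurons. NGFR is the low-affinity neurotrophin receptor of neurons and immature Schwann cells, and ERBB3 is the receptor through which Schwann cells respond to neuregulins. SOX10 is the transcription factor that specifies the glial lineage of the neural crest, S100B is a calcium-binding protein of Schwann cells, and CDH19 is a cadherin of Schwann cells and their precursors. None of them is restricted to nerve: NGFR is also made by mesenchymal cells, ERBB3 by epithelia, and S100B by melanocytes, chondrocytes and adipocytes. The cell bodies of the sympathetic nerves that supply the uterus lie mostly in ganglia outside it.

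The 6 genes were chosen by name from the 17152 gene names that the array annotation gave to its 20217 probes, and each was read from the probe with the highest mean signal. Together they had 7 probes, because ERBB3 had 2. For 5 genes the description of the probe carried the symbol, in the case of S100B as a macaque sequence highly similar to the human gene. The SOX10 probe was described only as a hypothetical protein, and its gene ID gave the symbol through the RefSeq table, so its identity rests on that match. Positions in the annotation place 179 probes, S100B among them, on chromosome 21 and 322 on chromosome 22, which macaques lack, although a header names a rhesus build. The build of the positions is thus not known, and none is given here.

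RNA came from 17 female fetuses, each on its own 1-color array, on 6 slides. Dams of the 5 GD100 BPA animals received 400 µg/kg/day of deuterium-labeled bisphenol A (BPA) by mouth in fruit from gestation day (GD) 50 to 100, and dams of the 3 GD165 BPA animals from GD100 until birth at GD165 to 168. Dams of the 5 GD100 control and 4 GD165 control animals received the ethanol vehicle. GD100 fetuses were delivered by caesarean section and GD165 fetuses vaginally, so age and mode of delivery cannot be told apart. Stillborn fetuses were not measured. The sample was one side of the uterus after a lengthwise cut from fundus to cervix. All 9 smooth muscle genes examined, and 13 of 15 epithelial genes, were marked well above background by the scanning software on all 17 arrays. So were 15319 of the 18747 probes with a gene name, so these counts alone do not identify the tissue. Levels are log2 intensities on a scale that gives all arrays one 75th percentile, so a difference of 1 is a change of 2-fold, and a level of one probe cannot be compared with that of another.

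The last 30 bases of the 60-base probes show what each signal was read from. They are written as the annotation has them, 5′ to 3′, and capitals mark the polyadenylation signal AATAAA.

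TH: caatcgccgtcacAATAAAagaaagtgtgg

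NGFR: ggtcctcctgaaacttacacataaaacata

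ERBB3: ggaactaggctcttatgtgtgcctttgttt

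ERBB3, second probe: ctggagtcagagccggatctgttaccattt

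SOX10: atcgagaaagagcccccagtcctcctccat

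S100B: ttaaaaaacaaagccttatccagcatcatt

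CDH19: actaatgtatatttgaaccaaagggtagtc

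Among these 7 windows only that of TH held AATAAA, as did 10.9% of the 20217 probes on the array, and none held its reverse complement TTTATT, found in 2.38%. The 2 ERBB3 probes are described by different transcripts, the second by the variant called s. Whether they read different transcripts was not tested.

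With gestational age, 3 of the 6 markers changed in control animals: NGFR and TH fell, and ERBB3 rose. For comparison, 6.32% of all probes were higher and 5.2% lower at GD165 than at GD100 in controls. NGFR and TH also fell in the BPA-exposed animals, where 4.82% of all probes were higher and 4.86% lower. S100B, SOX10 and CDH19 passed the test in neither comparison. The levels at the 2 ages did not overlap for TH, NGFR and ERBB3, 3 of 6 markers, under either treatment, as was so for 19.4% of all probes in controls and for 27.2% in the BPA animals, which have fewer arrays. The test was limma on all 17 arrays in 4 groups, two-sided, with a threshold of 0.01 on the p adjusted by Benjamini-Hochberg over all probes. In whole tissue, fewer cells of a type and less RNA per cell cannot be told apart.

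**Figure D1:**
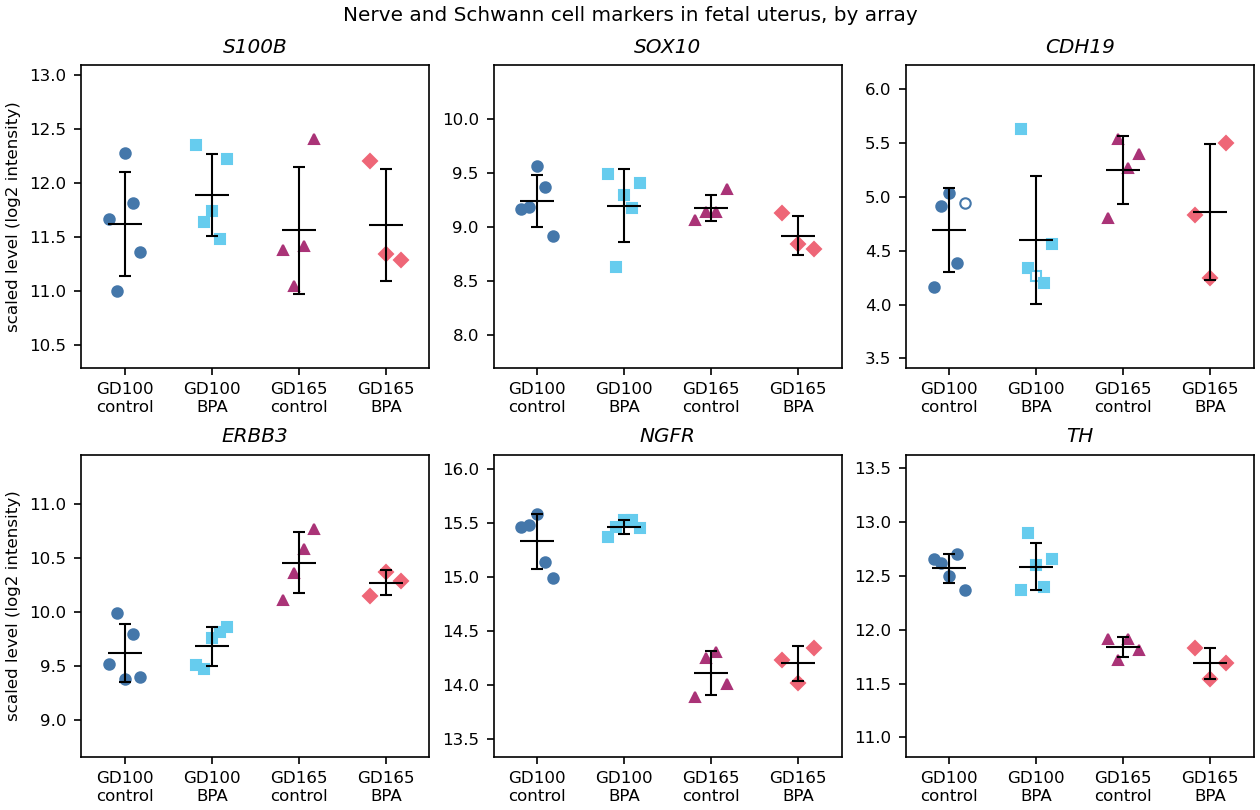
Scaled level (log2 intensity) of each marker on each of the 17 arrays; points are fetuses, bars are the group mean and SD, and open points are arrays on which the probe was not well above background. Every panel spans the same range of log2 units, and the GD100 and GD165 animals separate for ERBB3, NGFR and TH.

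TH stood at 12.65, 12.62, 12.49, 12.70 and 12.36 in the 5 GD100 controls and at 11.91, 11.72, 11.91 and 11.81 in the 4 GD165 controls. In the BPA-exposed animals it was 12.37, 12.90, 12.60, 12.39 and 12.66 at GD100 and 11.83, 11.55 and 11.69 at GD165. Every GD165 animal was thus below every GD100 animal, with or without BPA. In controls TH fell by 0.73 on the log2 scale (SE 0.11, 1.66-fold lower, limma adjusted p = 0.000329), and the exact two-sided permutation test over the 126 regroupings gave p = 0.00794. In the BPA groups it fell by 0.89 (SE 0.12, 1.86-fold lower, limma adjusted p = 0.000223, exact permutation p = 0.0179, the smallest that 56 regroupings allow). With slide as a fixed block both calls were lost by a small margin, at differences of -0.70 and -0.87 and an adjusted p of 0.0106 each. Within single slides the difference of TH between ages was -0.78 and -0.45 in the 2 control pairs and -0.97 in the BPA pair (n = 1 against 1 in each).

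NGFR, which binds the mature and the precursor forms of neurotrophins, showed the largest difference of the 6 markers. Its level was 15.46, 15.48, 15.58, 15.14 and 14.99 in GD100 controls and 13.88, 14.24, 14.31 and 14.00 in GD165 controls. The BPA-exposed animals had 15.37, 15.47, 15.52, 15.52 and 15.45 at GD100 and 14.23, 14.02 and 14.34 at GD165. The ages did not overlap under either treatment. NGFR fell by 1.22 in controls (SE 0.13, 2.33-fold lower, limma adjusted p = 1.86e-05, exact permutation p = 0.00794). With BPA it fell by 1.27 (SE 0.14, 2.41-fold lower, limma adjusted p = 6.56e-05, exact permutation p = 0.0179). Both calls held under every alternative analysis, 30 for each, with differences from -1.31 to -1.14 in controls and from -1.34 to -1.08 in the BPA groups. Within slides the control pairs differed by -1.33 and -1.10 and the BPA pair by -1.11.

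ERBB3, a kinase-impaired receptor that signals as a dimer with ERBB2, moved in the opposite direction. GD100 controls had 9.52, 9.99, 9.38, 9.80 and 9.40, and GD165 controls had 10.11, 10.37, 10.58 and 10.77. With BPA the levels were 9.51, 9.47, 9.76, 9.81 and 9.86 at GD100 and 10.15, 10.38 and 10.29 at GD165. Here too the ages did not overlap under either treatment. ERBB3 rose by 0.84 in controls (SE 0.15, 1.79-fold, limma adjusted p = 0.0012, exact permutation p = 0.0159); within slides the control pairs differed by 0.99 and 0.71. Among the BPA animals it was 0.59 higher (SE 0.17, 1.51-fold), which missed the threshold (limma adjusted p = 0.0203, exact permutation p = 0.0179), and the pair on one slide differed by 0.43. A fit of the control groups alone also missed it (limma adjusted p = 0.0137).

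The second ERBB3 probe gave a smaller difference. It stood at 7.16, 7.77, 7.53, 7.37 and 7.34 in GD100 controls and 7.94, 8.04, 7.80 and 7.96 in GD165 controls, again without overlap. Its difference of 0.50 (SE 0.16) did not pass (limma adjusted p = 0.0409), and in the BPA animals, where the ages overlapped, it was 0.17 (SE 0.18, limma adjusted p = 0.533). The 2 probes had the same direction and differed in size and call.

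SOX10 was present on all 17 arrays and differed little between any groups. Its level was 9.16, 9.19, 9.56, 9.36 and 8.91 in GD100 controls, 9.06, 9.14, 9.14 and 9.35 in GD165 controls, 9.49, 8.63, 9.29, 9.17 and 9.40 with BPA at GD100 and 9.12, 8.84 and 8.79 with BPA at GD165. All groups overlapped. The difference between ages was -0.06 in controls (95% interval -0.41 to 0.28, limma adjusted p = 0.839) and -0.28 in the BPA animals (-0.66 to 0.10, adjusted p = 0.285), so in controls a fall as large as that of TH lay outside the interval.

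S100B varied more from animal to animal than SOX10. GD100 controls had 11.66, 11.00, 12.28, 11.81 and 11.36, GD165 controls had 11.37, 11.04, 11.41 and 12.41, GD100 BPA animals had 12.35, 11.64, 11.74, 11.48 and 12.22, and GD165 BPA animals had 12.21, 11.34 and 11.29. The highest animal of each group stood between 12.21 and 12.41 and the lowest between 11.00 and 11.48, so all groups overlapped. The difference between ages was -0.06 in controls (95% interval -0.72 to 0.59, limma adjusted p = 0.919) and -0.27 with BPA (-0.99 to 0.44, adjusted p = 0.609).

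CDH19 lay close to the limit of the array. Its probe was well above background on 15 of 17 arrays, all but GD100 control 5 and GD100 BPA 3. Levels ran from 4.16 to 5.03 in GD100 controls (median 4.91), from 4.80 to 5.53 in GD165 controls (median 5.33), from 4.20 to 5.63 in GD100 BPA animals (median 4.34) and from 4.25 to 5.50 in GD165 BPA animals (median 4.83). The groups overlapped, and the difference between ages was 0.56 in controls (95% interval -0.10 to 1.22, limma adjusted p = 0.226) and 0.26 with BPA (-0.45 to 0.97, adjusted p = 0.629). A difference of the size of ERBB3's lies inside the interval for controls.

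**Figure D2:**
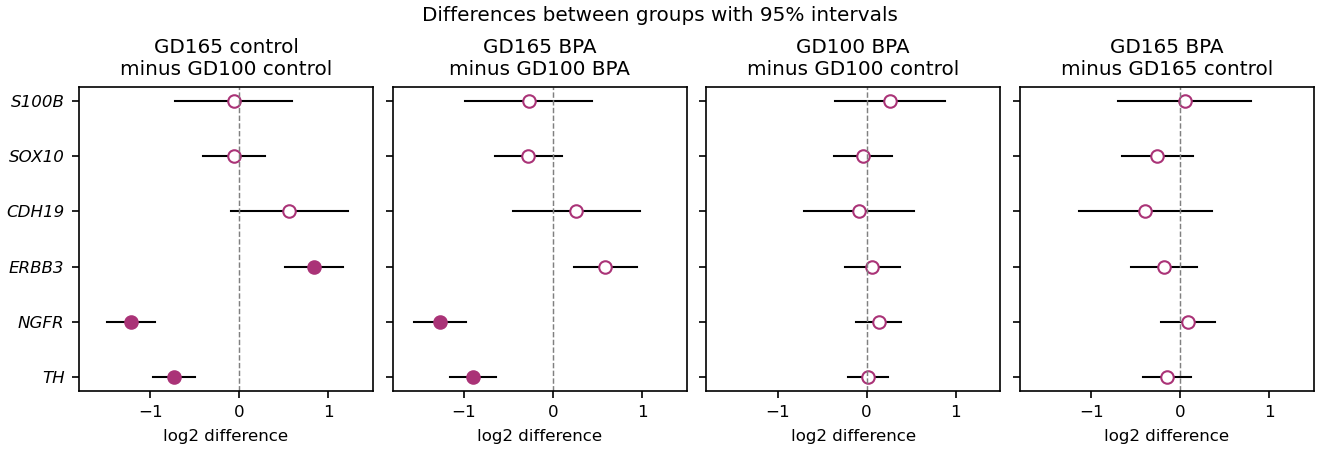
Log2 difference of each marker in the 4 comparisons between groups, with 95% intervals from limma; filled points have an adjusted p below 0.01. The filled points are those of ERBB3, NGFR and TH between control ages and of NGFR and TH between BPA ages, and none is filled for BPA against control.

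BPA was compared with control at each age, which asks whether exposure changed the markers. No marker (0 of 6) passed at GD100, where 0.0% of all probes passed, and none (0 of 6) at GD165, where again 0.0% did. In these comparisons 767 and 1740 probes had an unadjusted p below 0.05. The study's own error-weighted test did call a few genes at GD100 and many more probes at GD165. Its real-time RT-PCR gave the same direction for the GD165 genes it measured. The share of 0.0% thus belongs to the test used here and does not mean that BPA had no effect. Among the markers the lowest limma adjusted p was 0.744, that of SOX10 at GD165. The difference of TH was 0.02 at GD100 (95% interval -0.21 to 0.24) and -0.15 at GD165 (-0.42 to 0.12), and that of NGFR was 0.14 (-0.12 to 0.39) and 0.09 (-0.22 to 0.39). ERBB3 differed by 0.07 (-0.24 to 0.37) and -0.18 (-0.55 to 0.18), and SOX10 by -0.04 (-0.37 to 0.29) and -0.26 (-0.65 to 0.14). For these 4 genes the intervals leave out a change of 2-fold in either direction at both ages. The intervals were wider for S100B, at 0.26 (-0.36 to 0.88) and 0.05 (-0.69 to 0.80), but also left out 2-fold. They were wider too for CDH19, at -0.09 (-0.71 to 0.53) and -0.39 (-1.14 to 0.36), where that at GD165 did not leave out a 2-fold fall. The interaction of age and BPA, which asks whether the effect of age differed between treatments, called 0 of 6 markers and 0.0% of all probes. For ERBB3, past the threshold in controls only, the interaction was -0.25 (SE 0.22, limma adjusted p = 0.834). The 2 comparisons at one age and the 2 between ages use the same animals and are not independent.

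Of the 5 glial markers S100B and SOX10 varied together between animals. After the group means were taken out, Pearson's r between S100B and SOX10 was 0.68 over the 17 arrays, and S100B had an r of -0.07 with NGFR, -0.06 with ERBB3 and 0.22 with CDH19. S100B tracked the mean of 30 other genes of the Schwann cell lineage at an r of 0.92, and SOX10 did so at 0.71. For NGFR this r was 0.12, for ERBB3 0.15 and for TH 0.17. The 3 markers that changed with age in controls had the 3 lowest r with the Schwann cell list, and CDH19 had 0.31. Lists of other cells, described below, were also correlated with the markers. S100B had an r of 0.65 with 4 adipocyte genes, 0.61 with axonal and 0.58 with noradrenergic genes, 0.39 with melanocyte and 0.04 with chondrocyte genes. CDH19 had a higher r with melanocyte (0.62), noradrenergic (0.57) and skeletal muscle genes (0.56) than with the Schwann cell list. These values describe 17 arrays that share a platform and, in part, slides, and carry no test.

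Genes with the most similar pattern were sought among the named probes, between 15317 and 15319 for each marker, that the software marked as well above background on 17 arrays. Among the 3 most like S100B were PTPRZ1, a receptor phosphatase of glia (r = 0.90), and PEBP4 (0.88). For ERBB3 the first 3 were FLJ31204 (0.92), TRIM29 (0.92) and KRT5, a keratin of basal and squamous epithelium (0.91). TH was most like CLC (0.78), SIDT2 (0.77) and C14orf35 (0.76), none of which is on the nerve lists. For SOX10 the first 3 were GLIS3 (0.93), AKAP11 (0.89) and EMCN (0.85), for NGFR TXN2 (0.87), FLJ12571 (0.85) and TNFRSF18 (0.83), and for CDH19 ATP1A4 (0.88), NFAM1 (0.87) and PDE4DIP (0.86).

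**Figure D3:**
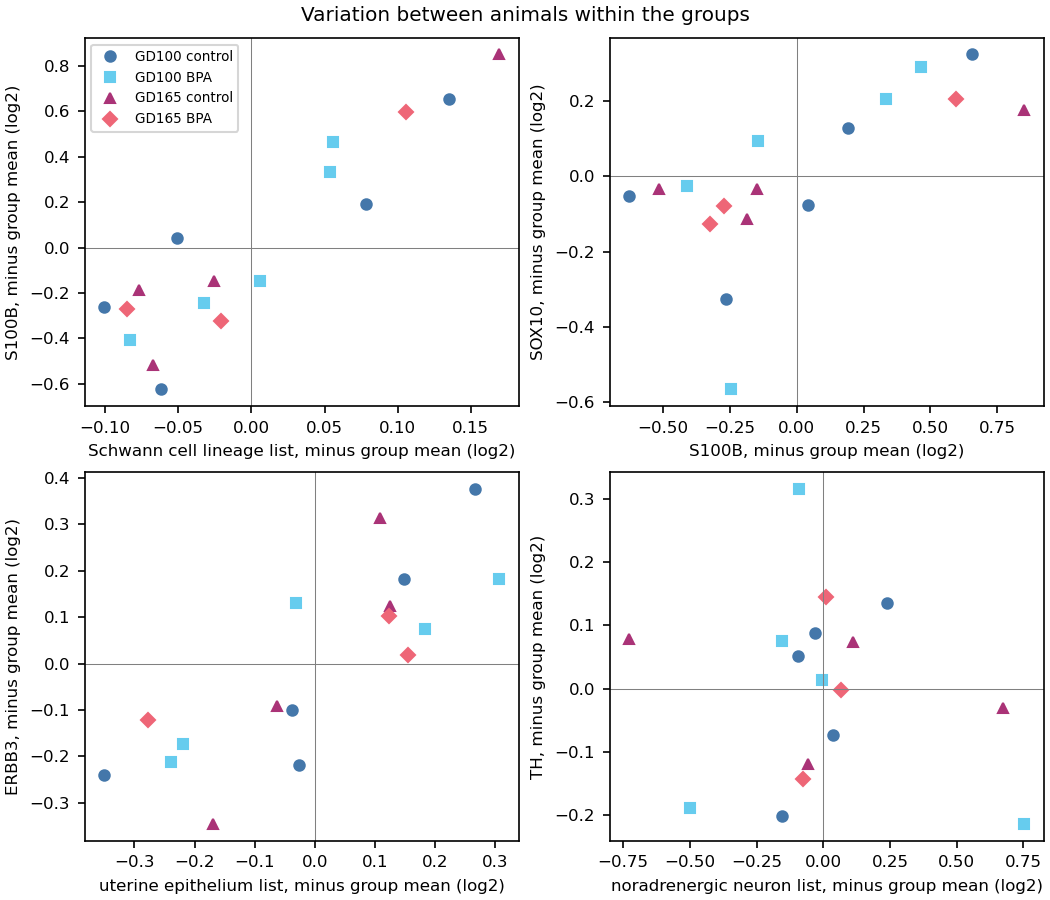
Variation within groups, each axis a log2 level minus its group mean, with 1 point per fetus in each panel; list values are means over the genes of a list. S100B tracks the Schwann cell list (r = 0.92) and SOX10 (r = 0.68), ERBB3 tracks the epithelial list (r = 0.82), and TH shows no relation to the noradrenergic list (r = -0.13).

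Epithelial markers moved with ERBB3. In controls 10 of 15 epithelial genes rose with age and 0 fell, where 6.32% of all probes rose and 5.2% fell. The median difference was 0.85, against 0.00 over all probes. MUC1, a mucin of the apical surface, rose by 1.48 (SE 0.21) and EPCAM, an adhesion molecule of epithelia, by 1.23 (SE 0.24). The summed scaled signal of the list ran from 130688 to 190013 in GD100 controls and from 259992 to 318159 in GD165 controls. In the BPA animals 7 of 15 rose and 0 fell, where 4.82% of all probes rose and 4.86% fell. The sum there ran from 121276 to 173725 at GD100 and from 196896 to 266124 at GD165. Differences above zero numbered 14 of 15 in controls and 12 of 15 with BPA. CDH1 (-0.75, SE 0.60) and KRT8 (-0.73, SE 0.27) were below zero with BPA and did not pass. Within groups the r of ERBB3 with the mean of this list was 0.82, and that of the other markers lay between -0.31 and 0.01. EPCAM alone had an r of 0.31 with ERBB3. Of the epithelial genes KRT8 was well above background on 14 arrays. The part of epithelium in the ERBB3 result was not tested.

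Markers of other cells were also examined. Beside their counts, 15319 of the 18747 probes with a gene name were well above background on 17 arrays. Of 15 skeletal muscle genes 4 rose in controls and 1 in the BPA animals, and 0 fell. The share of all probes that rose, 6.32% in controls and 4.82% with BPA, is the background for these counts. Of the mean signal of that list 89.8% came from DES, which smooth muscle also makes. Without DES the summed signal of the other 14 ran from 15028 to 16463 in GD100 and from 25533 to 210122 in GD165 controls, and from 13969 to 24189 and from 22281 to 108503 in the BPA animals, where the ages overlapped. Of 9 smooth muscle genes 4 rose in controls and 2 with BPA. Another list held 7 genes of adrenal cortex cells and of chromaffin cells, and of these cells the chromaffin cells also make TH. CYP17A1, NR5A1, PNMT and CHGA were well above background on 17 arrays, STAR and CYP11A1 on 0 and HSD3B2 on 1. PNMT, which turns noradrenaline into adrenaline, fell together with TH in the BPA animals, by 1.58 (SE 0.31), and differed by -0.72 (SE 0.29, limma adjusted p = 0.0886) in controls. The summed signal of the 7 ran from 5125 to 6309 in GD100 and from 5169 to 6652 in GD165 controls, and from 6501 to 8053 and from 4137 to 5089.7 in the BPA animals, where the ages did not overlap. Of 10 melanocyte genes 6 were well above background on 17 arrays and TYRP1 on 0; MITF rose in both comparisons, by 1.10 and 1.29, and no other passed. Of 4 adipocyte genes 3 were well above background on 17 arrays and ADIPOQ on 1, and FABP4 rose in controls. Of 7 chondrocyte genes 6 were well above background on 17 arrays, SOX9 rose in controls and CNMD fell in the BPA animals. The part of these cells in the results was not tested.

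The genes around the markers were described by 5 lists that hold none of the 6, with 136 genes on the array. In controls 12 of them rose and 17 fell with age, where 6.32% of all probes rose and 5.2% fell. In the BPA animals 8 rose and 17 fell, where 4.82% of all probes rose and 4.86% fell. These shares are the background for the count of each list. Of these calls, 6 of 29 and 4 of 25 held in every alternative analysis, and 18 and 6 held whichever single animal was left out. BPA against control called 0 of 136 at either age.

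Within the Schwann cell lineage, 4 of 30 genes rose and 4 fell in controls, with a median difference of 0.12. MAL, a proteolipid of myelin and of apical epithelial membranes, rose by 1.95 (SE 0.32), PLLP, a related plasma membrane proteolipid, by 0.61 (SE 0.11) and GPM6B by 0.52 (SE 0.09). Within groups MAL and PLLP had an r of 0.10 and -0.14 with S100B, 0.35 and -0.12 with SOX10, and 0.49 and 0.64 with ERBB3. Which cells the rises of MAL and PLLP came from was not tested. FABP7, a fatty acid binding protein of glial precursors, fell by 2.12 (SE 0.38), PTPRZ1 fell by 1.0 (SE 0.24), GFRA3, the artemin receptor, fell by 0.90 (SE 0.21) and NCAM1, an adhesion molecule of immature and non-myelinating Schwann cells, fell by 0.86 (SE 0.13). With BPA, 3 of 30 rose and 4 fell, with a median of -0.19: MAL, PLLP and EGR2, the transcription factor of myelination, which rose by 1.30 (SE 0.25), against FABP7, PTPRZ1, GFRA3 and NCAM1. These 7 calls depended on single animals: 1 to 4 genes of the list passed without GD100 BPA 1, 2 or 3 or any one GD165 BPA animal, 1 of them without GD165 BPA 4. With slide as a fixed block 4 genes of the list passed in controls and 0 in the BPA animals, and with the replicate block 4 and 2.

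Most genes of noradrenergic neurons differed upward with age in controls, where TH fell, and downward in the BPA animals, where TH also fell. In controls 3 of 24 rose and 2 fell, with a median of 0.61 and 19 of 24 above zero, and in the BPA animals 3 rose and 3 fell, with a median of -0.54 and 9 of 24 above zero. Of the 24 genes only 15 were well above background on all 17 arrays. The list mean per animal, relative to all arrays, ran from -0.34 to 0.05 in GD100 controls. In GD165 controls it ran from -0.42 to 0.98, so the control ages overlapped. With BPA it ran from -0.31 to 0.94 at GD100 and from -0.48 to -0.34 at GD165. DBH, the enzyme that turns dopamine into noradrenaline, was well above background on 13 of 17 arrays, with a difference of 0.98 (SE 0.61, adjusted p = 0.296) in controls and 0.39 (SE 0.67, adjusted p = 0.727) with BPA. The monoamine oxidases MAOB and MAOA rose in both comparisons, MAOB by 2.24 (SE 0.22) in controls and 1.96 (SE 0.24) with BPA. GATA2, a transcription factor of sympathetic neurons and of endometrium, fell by 0.59 (SE 0.09) and 0.43 (SE 0.10). CYB561, an electron carrier of secretory vesicles, rose by 1.18 and the neuropeptide NPY fell by 1.55 in controls; in the BPA animals GCH1, which makes the cofactor of TH, rose by 0.89, and the granule protein CHGB and PNMT fell by 3.63 and 1.58. The interaction called none of these differences between treatments (0 probes). Without GD165 BPA 4, 2 genes of the list passed in the BPA animals, and with slide as a fixed block 1 did; with the replicate block 2 passed in controls.

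**Figure D4:**
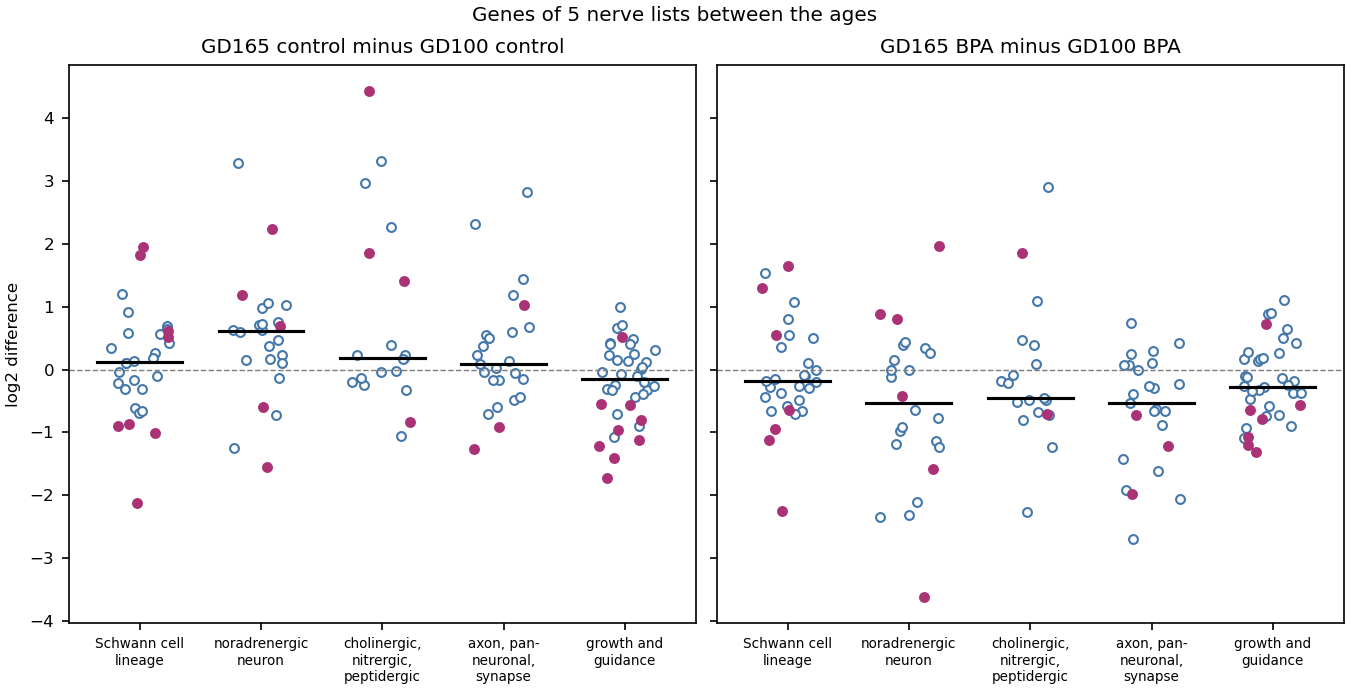
Log2 difference between ages for each gene of 5 nerve lists, in control animals on the left and in BPA-exposed animals on the right; filled points have a limma adjusted p below 0.01 and bars are list medians. Most points are open in every list, and the noradrenergic median is 0.61 in controls and -0.54 with BPA.

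Within groups TH varied little. Its SD between animals, pooled over the 4 groups, was 0.16, against a median of 0.25 over all probes, and lay at the 26.0th percentile. That SD was 0.98 for DBH and 1.21 for CHGB. The r of TH within groups was 0.16 with DBH and -0.13 with the mean of the noradrenergic list. With the other nerve lists it ran from -0.44 (cholinergic, nitrergic and peptidergic) to 0.55 (growth and guidance).

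**Figure D5:**
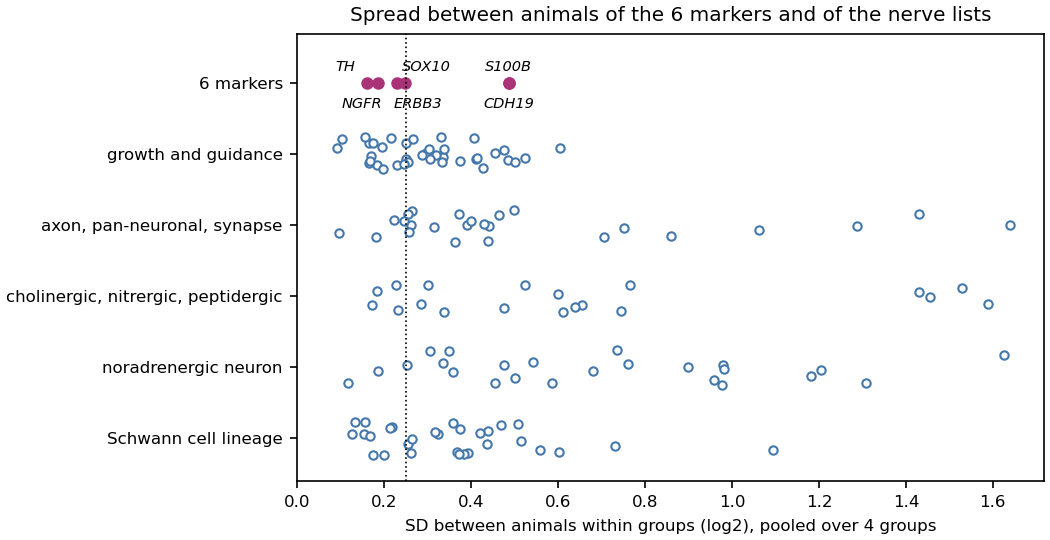
SD of the log2 level between animals within groups, pooled over the 4 groups, for the 6 markers (filled) and for each gene of the 5 nerve lists (open); the dotted line is the median of all probes, 0.25. TH has 0.16 and S100B 0.49, while several neuronal genes exceed 1.

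The other neuronal lists were described in the same way. Of 19 cholinergic, nitrergic and peptidergic genes 3 rose and 1 fell in controls: SST, somatostatin, rose by 4.44 (SE 0.89), TAC1, the precursor of substance P, by 1.86 and SLC5A7, the choline transporter, by 1.41, while TRPV1, the heat-gated channel, fell by 0.83. SST ran from 5.06 to 7.02 in GD100 controls and from 8.42 to 13.04 in GD165 controls, and was 4.71 to 6.43 in the GD165 BPA animals (BPA minus control -4.31, limma adjusted p = 0.354). The study's own test did call SST lower with BPA at GD165, and its real-time RT-PCR gave the same direction. Between BPA ages SLC5A7 rose by 1.86 and P2RX3, an ATP receptor of sensory neurons, fell by 0.71. CHAT was well above background on 0 arrays. Of 25 axonal and synaptic genes 1 rose and 2 fell in controls and 0 rose and 3 fell with BPA. SNAP25, of the vesicle fusion machinery, rose by 1.03 and SCN3A fell by 0.91 in controls, and DCX, a microtubule protein of young neurons, fell by 1.27 in controls and 1.99 with BPA. UCHL1 differed by -0.16 (SE 0.16) in controls and fell by 0.73 (SE 0.17) with BPA, where TUBB3, the neuronal tubulin, differed by -1.91 (SE 0.51, adjusted p = 0.0166); in controls the difference of TUBB3 was 0.13 (SE 0.47). ELAVL3 also passed with BPA but was well above background on 0 arrays, and no fold is given. These counts were small and rested on single animals: without GD165 control 6, 2 cholinergic and peptidergic genes and 1 axonal gene passed in controls, and 1 axonal gene passed there without GD165 control 3. In the BPA animals 0 cholinergic and peptidergic genes passed without GD165 BPA 4, and 1 axonal gene passed when any one of 12 animals was left out, each GD165 BPA animal among them. With slide as a fixed block 0 cholinergic and peptidergic genes passed in either comparison and 1 axonal gene in each, and with the replicate block 1 and 0 passed in controls and 1 and 1 with BPA.

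Of 38 ligands and receptors of nerve growth and guidance 1 rose and 8 fell in controls, with a median of -0.16, and 1 rose and 6 fell with BPA, with a median of -0.27. SORT1, the sortilin that pairs with NGFR at the membrane, rose by 0.52 (SE 0.11) and 0.73 (SE 0.13). NRG1, a ligand of ERBB3, did not pass, with differences of -0.25 (SE 0.15) and -0.28 (SE 0.17). ROBO1, a receptor for the repellent SLIT proteins, fell by 1.41 and 1.20, SEMA3A, a repellent of sympathetic axons, fell by 1.22 and 1.08, and GFRA2, the neurturin receptor, fell by 1.12 and 1.31. NRG3, well above background on 4 of 5 GD100 and 0 of 4 GD165 controls, was at least 1.3-fold lower at GD165 (limma adjusted p = 0.00178), a bound against the lowest signal well above background on each array. NRP2, a semaphorin receptor, fell by 0.55 and 0.79. RTN4R, the receptor for myelin-associated inhibitors, fell by 0.65 with BPA. In the BPA animals 4 genes of the list passed without GD100 BPA 3 or GD165 BPA 4, and 3 without GD165 BPA 5. With slide as a fixed block 3 passed in controls and 2 with BPA, and with the replicate block 3 passed in controls.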

How the data were processed

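The authors labeled total RNA with Cy3, hybridized it to Agilent rhesus arrays and read them with Agilent Feature Extraction 9.5, per the labels and the study's methods. They deposited background-subtracted linear intensity values, not scaled between arrays. Here control and outlier spots were dropped, the log2 intensity was averaged over both spots of a probe, and arrays were aligned at their 75th percentile, set to 12.62. Between 83.8 and 89.0% of the spots of an array passed the software's background test, and 0 of 136 array pairs were identical. The number of arrays limits the precision.

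limma 3.58.1 (R 4.3.3) was fitted to 17 arrays in 4 groups with p adjusted over 20217 probes; the study's error-weighted test was not repeated. Tested on simulated data with 200 changed probes, it called 61.0% of 2-fold changes between control ages and 47.5% between BPA ages. For BPA against control it called 61.5% at GD100 and 50.5% at GD165. Many more probes passed between ages in the data, 2328 and 1956, so these rates hold for the simulated setting only. Exact permutation tests, two-sided on the difference of means, used Python 3.11.15.

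The markers and gene lists were chosen with earlier results of these data known. Named from the nerve lists were genes past the threshold, up to 5 per direction, list and comparison by size, and DBH, UCHL1, TUBB3 and NRG1 whatever their values. A few further list genes count in the totals, medians and plots of their lists, and their own results are not reported here. Genes named from the lists of other cells, and CHAT, were chosen after their values were seen. A list gene is its brightest probe, some under older symbols. The alternatives were another background correction (normexp), scaling, dim filter, error model, set of arrays, a block for slide or replicate number, averaged probes, a threshold of 0.05, and each animal left out.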

Additional observations from a re-analysis of the deposited data

Results flagged for a closer look

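CDH19 in GD100 BPA animal 1 stood at 5.63, apart from the other 4 of its group, which lay between 4.20 and 4.56; the gap was 0.75 of the range of the group. It was the 1 far sample among 18 sets of values examined (6 markers in the 3 groups of 4 or 5 animals), where chance gives about 1 in 20. CDH19 passed the threshold in no comparison with or without this animal.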

How the results depend on the processing

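Over 30 alternatives, NGFR passed the threshold in every one in both comparisons of ages. TH passed in 28 between control ages, all but slide as a fixed block and the replicate block (-0.69, adjusted p = 0.0105), and in 29 between BPA ages. ERBB3 passed in 29 between control ages (0.67 to 0.95) and in 1 between BPA ages (normexp, 0.57, adjusted p = 0.0079). At a threshold of 0.05 it passed in both, with 3 markers in each, and its second probe passed between control ages. With slide as a fixed block the number of markers past the threshold between BPA ages was 1, NGFR, in place of 2. Leaving out any one animal changed no call of a marker. The 136 list genes gave 29 and 25 calls, which were less stable; in a fit of the compared groups only, the lists had 4, 4, 1, 1 and 6 calls in controls in place of 8, 5, 4, 3 and 9, and 3, 3, 1, 2 and 3 with BPA in place of 7, 6, 2, 3 and 7, in the order of the report. Over all probes, 2328 passed between control ages and 1956 between BPA ages, against 1172 and 1176 in a fit of the compared groups only, 1233 and 512 with slide as a fixed block, and 1525 and 1626 without scaling, where 1238 were higher and 388 lower between BPA ages in place of 974 and 982.

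Replicate numbers did not pair the animals: over 13 pairs of the same number, the r of deviations from group means was -0.167 to 0.115, with 1 above 0.1. With the replicate block 958 and 1444 probes passed. In that fit the sign turned for TUBB3 (-0.511) between control ages and for S100B in the interaction (0.209).

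Signs turned for differences that had not passed the threshold and did not pass then; the cause was not tested. With slide as a fixed block SOX10 was 0.018 between control ages and 0.0139 for BPA at GD100, and the interaction was 0.0173 for S100B and 0.187 for NGFR. Without scaling, which moved the median of all probes by 0.13 between BPA ages and 0.16 in the interaction, TH was -0.0233 for BPA at GD100, 0.0112 at GD165 and 0.0344 in the interaction, and NGFR 0.152 in the interaction. Median scaling gave TH -0.0144 for BPA at GD100 and NGFR 0.0104 in the interaction, quantile normalization gave CDH19 0.0159 in the interaction, error weights gave CDH19 0.0742 for BPA at GD100, and normexp gave CDH19 -0.0179 between BPA ages.

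Leaving out 1 animal at a time also turned signs within these ranges. Between control ages S100B ran from -0.345 to 0.11, SOX10 from -0.145 to 0.0176 and TUBB3 from -0.395 to 0.614. Between BPA ages CDH19 ran from -0.0605 to 0.566 and DBH from -0.248 to 0.938. For BPA at GD100 SOX10 ran from -0.122 to 0.101, CDH19 from -0.347 to 0.00922 and TH from -0.0624 to 0.0699, and at GD165 S100B ran from -0.246 to 0.335. In the interaction S100B ran from -0.508 to 0.0725, CDH19 from -0.621 to 0.00554 and NGFR from -0.124 to 0.0413. Low signal limits CDH19 and DBH, and 3 GD165 BPA animals limit every comparison that uses them.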
